A study of Homo sapiens with 6 samples.

Results

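The miRNAs of the imprinted DLK1-MEG3 domain on chromosome 14q32 were examined in HEK-293FT cells, a human embryonic kidney line that carries the SV40 large T antigen. Members were taken by name: an assay belonged to the group when its miRNA number was one of 39 numbers known from the 14q32 cluster. This gave 44 of the 377 human miRNA assays on the card, for 36 of the 39 numbers; miR-432, miR-543 and miR-656 were not analysed here. The study comprised 3 control samples, whose treatment the labels do not detail, and 3 samples transfected with siRNA against TruB1, an enzyme that converts uridine to pseudouridine in transfer RNA. All 6 were of the same line. The titles carry a series number from 1 to 3 that each control shares with 1 knockdown. Nothing in the labels says that the samples of a group came from separate cultures, so the tests measure only the spread between these samples. TruB1 is not among the assays, and how far it was reduced was not analysed here.

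RNA was reverse transcribed with a pool of miRNA-specific primers and measured by quantitative PCR over 40 cycles, with 1 well per miRNA. The raw value is the threshold cycle (Ct), at which the signal first exceeds a threshold. It falls by 1 for each doubling of the template at full efficiency, and a well that never exceeds the threshold is recorded as undetermined. The normalised value is the level relative to U6 small nuclear RNA, given here as log2. Assays can differ in efficiency, so levels of different miRNAs are set side by side only as Ct.

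The domain lies between DLK1 and DIO3. By imprinting, the protein-coding genes DLK1, RTL1 and DIO3 are expressed from the paternal chromosome, and the non-coding RNAs MEG3 and MEG8 and the miRNAs from the maternal one. The miRNAs are thought to be cut from long non-coding transcripts of the maternal chromosome, and are abundant in brain and placenta and in embryonic tissues. MEG3 and the miRNAs are often silenced in cell lines and tumours.

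All 44 assay targets matched a mature miRNA of RefSeq (GRCh38.p14) by both name and sequence, all on the plus strand of chromosome 14. In the order of the locus they fell into an upstream group of 8 assays, from miR-493 to miR-370 (chr14:100869116-100911207), and a downstream group of 36, from miR-379 to miR-410 (chr14:101022071-101065981), with 110.9 kb between them. miR-329 and miR-376a each had 2 loci and were placed by the first listed. The annotation used gives the span of a gene but not its exons. In the upstream group, miR-431, miR-433, both arms of miR-127 and miR-136 lay within the span of RTL1, and miR-370 within that of MEG8. In the downstream group, 10 assays, miR-494 among them, lay within an uncharacterised gene, LOC124903407, and 6 within MIR381HG. The other 22 members, including miR-487a, lay within no annotated gene other than the miRNA's own.

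The sequences below are the assay targets on which the results turn, chosen because they are the members determined most often together with their closest relatives on the card. Capitals mark the seed, bases 2 to 8, which pairs with the target mRNA.
miR-494: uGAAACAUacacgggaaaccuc
miR-487a: aAUCAUACagggacauccaguu
miR-487b: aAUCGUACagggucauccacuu
miR-485-3p: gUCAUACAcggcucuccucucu
miR-485-5p: aGAGGCUGgccgugaugaauuc
miR-410: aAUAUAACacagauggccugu
miR-376a: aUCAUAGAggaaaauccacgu
miR-376b: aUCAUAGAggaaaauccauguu
miR-376c: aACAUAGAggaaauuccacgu

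Relative to miR-487a, with positions counted from 1 at the 5′ end, miR-487b carries A5G, A13U and G20C, so that 1 of the 3 differences is in the seed. Relative to miR-376a, miR-376c carries U2A, which is in the seed, and A14U. Over the positions they share, miR-376b differs from miR-376a by C19U, and it is longer at its 3′ end. Among the 44 members only 2 pairs shared a seed: miR-376a with miR-376b, and miR-654-5p with miR-541-3p. In RefSeq the seed of miR-494 belonged to no other named mature miRNA, that of miR-487a also to miR-154-3p, and that of miR-485-3p also to miR-539-3p. Both are arms of other hairpins of the same cluster that had no assay among the members.

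Most of the cluster gave no signal. Of the 44 assays, 28 (63.6%) were undetermined in all 6 samples, 14 were determined in 1 to 5 samples, and only miR-494 and miR-487a (4.55%) were determined in all 6. Of the 264 wells 34 (12.9%) had a Ct, and 26 of them were under Ct 35. Among the other 333 assays of the card 159 (47.7%) were determined in all 6 samples and 73 (21.9%) in none, and 61.7% of wells had a Ct. These counts describe the 2 sets of assays and were not tested against each other. If its reaction worked, an undetermined well places the miRNA below what 40 cycles could show. This corresponds to a log2 value relative to U6 between -27.85 and -24.55 depending on the sample. Whether each undetermined well worked was not tested. U6, despite its early Ct, was itself determined in only 2 of 4 wells in control 3 and 3 of 4 in knockdowns 2 and 3.

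**Figure D1:**
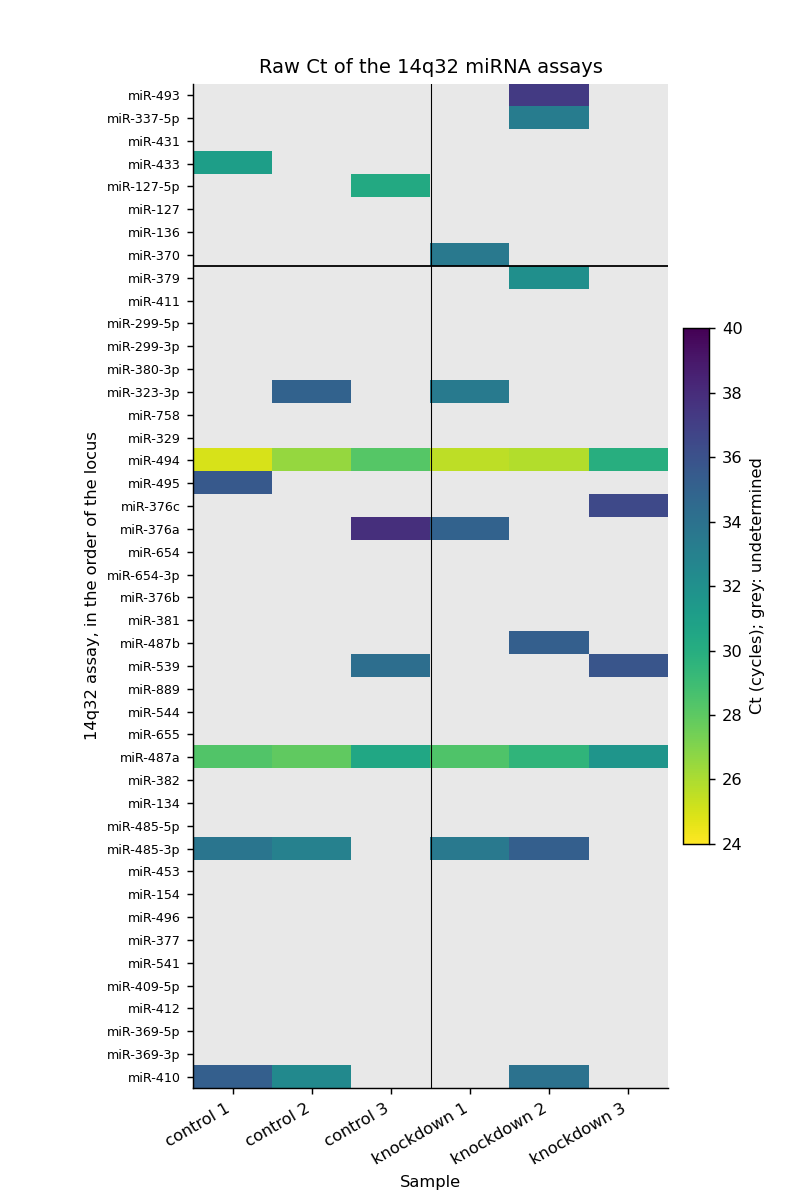
Raw Ct of each of the 44 assays (rows, in the order of the locus, with a line between the upstream and downstream groups) in the 3 control and 3 knockdown samples (columns); earlier cycles are lighter and grey wells are undetermined. Only the rows of miR-494 and miR-487a are filled in all 6 samples, and 28 rows are grey throughout.

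The members without a Ct in any sample included some of the best known of the cluster. Among them were miR-134, which acts in neuronal dendrites, miR-127-3p, which is encoded opposite RTL1 and can direct cleavage of its mRNA, miR-136, also encoded opposite RTL1, and miR-154-5p. The remaining members undetermined in all 6 samples were miR-299-3p, miR-299-5p, miR-329, miR-369-3p, miR-369-5p, miR-376b, miR-377, miR-380-3p, miR-381, miR-382, miR-409-5p, miR-411, miR-412, miR-431, miR-453 (now named miR-323b-5p), miR-485-5p, miR-496, miR-541, miR-544, miR-654-5p, miR-654-3p, miR-655, miR-758 and miR-889. For 5 hairpins both arms were on the card. Neither arm of miR-299, miR-369 or miR-654 was determined in any sample. Of miR-485 only the 3p arm gave a signal, in 4 samples, and of miR-127 only the 5p arm, in 1.

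The C19MC cluster on chromosome 19, another large imprinted miRNA cluster, which is active mainly in placenta, showed a similar make-up on the card. Of its 35 assays 1 was determined in all 6 samples (miR-518b, at a mean Ct of 31.6), 15 in some and 19 (54.3%) in none, with a Ct in 18.6% of wells. Of 7 assays of the pluripotency clusters, of miR-302 and miR-367 and of miR-371 to miR-373, 0 were determined in all samples and 5 in none. By contrast 2 of 4 assays for miRNAs of 14q32 outside the imprinted domain, miR-342-3p and miR-345, were determined in all 6 samples, as were 2 of 6 from other imprinted loci, miR-296 and miR-483-5p. No difference between these lists was tested.

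**Figure D2:**
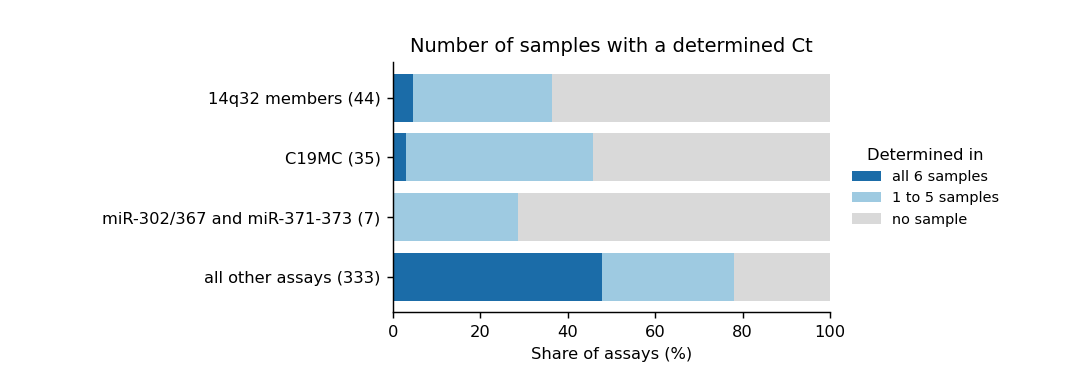
Share of assays (%) determined in all 6 samples, in 1 to 5 samples and in no sample, for the 14q32 members, 2 other developmentally restricted sets and all other assays of the card, which include those 2 sets; the number of assays stands in brackets. The dark segment is 4.55% of the 14q32 members and 47.7% of all other assays.

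miR-494 had the earliest Ct of the group. Its mature sequence lies at chr14:101029681-101029702, between miR-329 and miR-495. Its Ct was 24.95, 26.54 and 28.21 in controls 1, 2 and 3, against 25.58, 25.84 and 29.94 in knockdowns 1, 2 and 3. Both samples of series 3 were later than the other 4, and the control and knockdown values overlapped. With a mean of 26.8 cycles, it ranked 77th among the 161 assays determined in all samples, near their median of 26.9. This mean covers a wide range: within a sample it ranked between 45th and 75th in series 1 and 2, and 107th and 111th in the control and knockdown of series 3. Its signal appeared from 10.1 to 15.0 cycles before the last cycle. The assays on either side of it in the order of the locus did not share this level. miR-329, whose first listed locus lies 2826 bases upstream, was undetermined throughout. miR-495, 4102 bases downstream, had a Ct in control sample 1 alone, at 35.5.

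miR-487a, at chr14:101052494-101052515, gave a later but equally regular signal. Its Ct was 28.35, 27.93 and 30.46 in controls 1, 2 and 3, against 28.43, 29.54 and 31.63 in knockdowns 1, 2 and 3. Here too series 3 held the latest Ct of each group, and the groups overlapped. Its mean of 29.4 cycles ranked 116th of 161. The assays on either side, miR-655 and miR-382, were undetermined in all samples. Its paralog miR-487b, 3 substitutions away, had a Ct in knockdown sample 2 alone, at 35.2. The next nearest targets on the card, miR-376b at 5 edits and miR-376a at 6, were determined in no sample and in 2. How far each assay reads its relatives was not tested.

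miR-487a came later than miR-494 in every sample, by 3.40, 1.38 and 2.25 cycles in controls 1, 2 and 3 and by 2.85, 3.70 and 1.69 cycles in knockdowns 1, 2 and 3. The gap averaged 2.35 ± 1.01 cycles in the controls and 2.75 ± 1.01 cycles in the knockdowns (SD, n = 3 each). The change of 0.401 cycles is smaller than either SD.

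miR-485-3p (chr14:101055464-101055485), whose hairpin is known from the regulation of synapses, was determined in the 4 samples of series 1 and 2 and in neither of series 3. Its Ct was 33.76 and 32.97 in controls 1 and 2 and 33.53 and 35.17 in knockdowns 1 and 2, near the end of the usable range, and the groups overlapped. Among the other 333 assays 3 (0.901%) had the same pattern over the series. The 5p arm of this hairpin, which lies next to it, was undetermined in all samples.

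miR-410, the last member of the downstream group (chr14:101065961-101065981), was determined in 3 samples. Its Ct was 35.14 and 32.42 in controls 1 and 2 and 33.99 in knockdown 2. It too was undetermined in both samples of series 3. The assay before it in the locus, miR-369-3p, 300 bases upstream, was undetermined throughout.

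The other signals were scattered. miR-323-3p was determined in control sample 2 (Ct 34.9) and knockdown sample 1 (33.4), and miR-376a in control sample 3 (37.84) and knockdown sample 1 (34.95). The miR-376 family is known for editing of its seed in brain. miR-539 was determined at Ct 34.2 in the control and 35.8 in the knockdown sample of series 3 and in no other, a pattern shared by 4 (1.20%) of the other assays.

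A further 9 members had a single determined well. In control samples these were miR-433 in sample 1 (Ct 31.1), miR-495 in sample 1 (35.5) and miR-127-5p in sample 3 (30.3). In knockdown samples they were miR-370 in sample 1 (33.5), miR-379 in sample 2 (32.003), miR-337-5p in sample 2 (33.3), miR-487b in sample 2 (35.2), miR-493 in sample 2 (37.3) and miR-376c in sample 3 (36.5). miR-433 and miR-127-5p, both within the span of RTL1, were thus the only single wells of the group under Ct 32. Of the single wells, 3 lay in control and 6 in knockdown samples. The other assays of the card had 34 single wells, 14 in control and 20 in knockdown, at a median Ct of 32.7 against 33.5 for the 14q32 members. With 1 well per assay, the error of a single well cannot be told from a difference between samples.

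Little was determined in either part of the locus, and the parts were not tested against each other. In the upstream group 5 of 8 assays had a Ct, each in 1 sample, which is 10.4% of wells. In the downstream group 11 of 36 assays had a Ct, in 13.4% of wells. It held both miRNAs determined in all samples, which made up 12 of its 29 determined wells. Along the locus, miR-494 and miR-487a were separated by 12 assays, of which 5 were determined in 1 or 2 samples and 7 in none.

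The number of 14q32 miRNAs that could be detected differed between the groups by less than the spread of the knockdown samples. Controls 1, 2 and 3 had 6, 5 and 5 determined members, and knockdowns 1, 2 and 3 had 6, 8 and 4. The means were 5.33 ± 0.577 (SD, n = 3) and 6 ± 2 (SD, n = 3). Under Ct 35 there were 4, 5 and 4 members in control and 6, 5 and 2 in knockdown, a difference of 0 between means of 4.33 (SD 0.577 in control and 2.08 in knockdown, n = 3). In wells, 16 of 132 (12.1%) were determined in control and 18 of 132 (13.6%) in knockdown, while for all other assays the shares were 62.2% and 61.2%. No member was determined in 2 or more samples of 1 group and in none of the other, a pattern shown by 6 assays (1.59%) of the 377 on the card. No assay of the whole card was determined in all 3 samples of a group and in none of the other (0% of 377).

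Of the 44 members 3 met the filter for testing: a Ct under 35 in at least 3 samples and a determined value in at least 2 samples of each group. The other 41, including miR-410, were not tested. Over the whole card 195 assays were tested with limma on log2 values relative to U6, and 0 (0%) passed an adjusted p of 0.05, with 0 at an unadjusted p under 0.05. None of the 3 members passed.

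**Figure D3:**
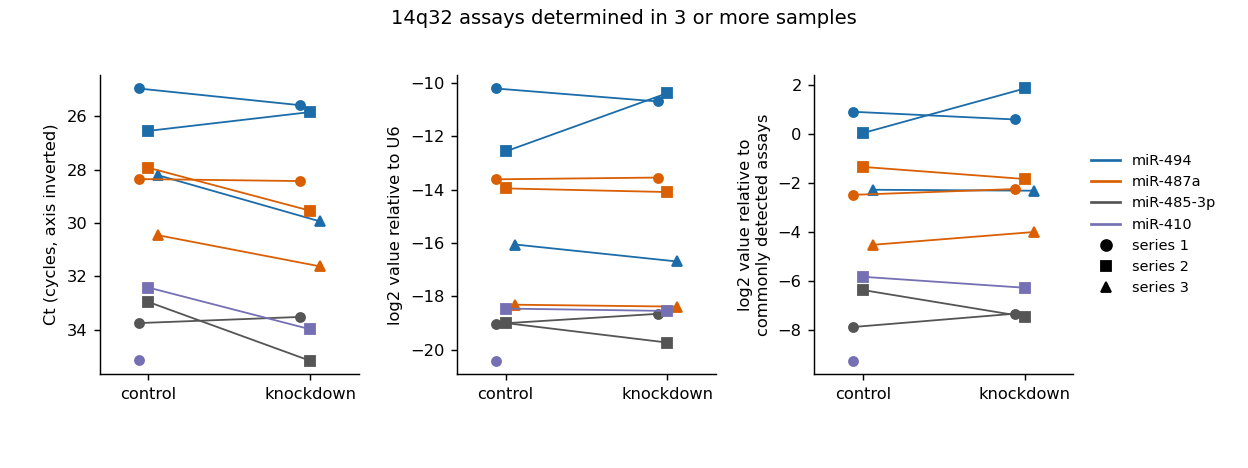
Raw Ct (left, axis inverted so that higher means more template), log2 value relative to U6 (middle) and log2 value relative to commonly detected assays (right) of the 4 members determined in 3 or more samples; symbols give the series number, and lines join the control and knockdown sample of a series. On all 3 scales the triangles of series 3 lie below the other points of miR-494 and miR-487a, and control and knockdown overlap.

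For miR-494 the log2 value relative to U6 was -10.22, -12.57 and -16.06 in controls 1, 2 and 3, against -10.70, -10.39 and -16.69 in knockdowns 1, 2 and 3. The difference, knockdown minus control, was -0.49 in series 1 and -0.64 in series 3 but 2.18 in series 2. The mean log2 fold change was 0.35 (SE 1.51, limma adjusted p = 0.999 over 195 assays), with a 95% interval from -2.62 to 3.33. For each assay limma draws the SE and interval toward the spread of all tested assays. The SD of miR-494 itself was 2.94 in the controls and 3.55 in the knockdowns (n = 3 each). By raw Ct the difference was turned, with knockdown later by 0.552 cycles on average. The median of the 195 tested assays was also later in knockdown on that scale, by 1.00 cycles.

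For miR-487a the log2 value relative to U6 was -13.62, -13.96 and -18.31 in controls 1, 2 and 3, against -13.55, -14.09 and -18.38 in knockdowns 1, 2 and 3. On this scale knockdown minus control was 0.066, -0.14 and -0.072 in series 1, 2 and 3. The mean log2 fold change was -0.047 (SE 1.49, limma adjusted p = 0.999), with a 95% interval from -2.98 to 2.89. Relative to the mean of commonly detected assays it was 0.089, with 0.24, -0.50 and 0.52 in series 1, 2 and 3, so its sign depended on the reference. By raw Ct it was later in knockdown in all 3 series, by 0.0766, 1.61 and 1.17 cycles, as were 61.5% of the assays determined in all samples.

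When same-numbered samples were paired by a replicate block, the interval of miR-487a narrowed to between -1.02 and 0.92 around the same change, and that of miR-494 to between -1.14 and 1.85 (limma adjusted p = 0.990 for both over 189 assays). In that fit 0% of assays passed an adjusted p of 0.05 and 5.29% had an unadjusted p under 0.05, none of them a member. These intervals rest on pairing samples by the series number of the titles. No label says that a shared number marks a pair, which was inferred from the values. The intervals also rest on a spread that limma draws toward that of the other assays. The series 2 difference of miR-494, 2.18, lies above its interval. Both intervals leave room for change: up to about 1 unit in either direction for miR-487a, and up to 1.85 units upward for miR-494.

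For miR-485-3p the log2 value relative to U6 was -19.02 and -18.99 in controls 1 and 2 and -18.65 and -19.72 in knockdowns 1 and 2. It was higher in knockdown by 0.37 in series 1 and lower in series 2, at -0.73. The mean log2 fold change was -0.18 (SE 1.79, limma adjusted p = 0.999), from 4 wells.

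**Figure D4:**
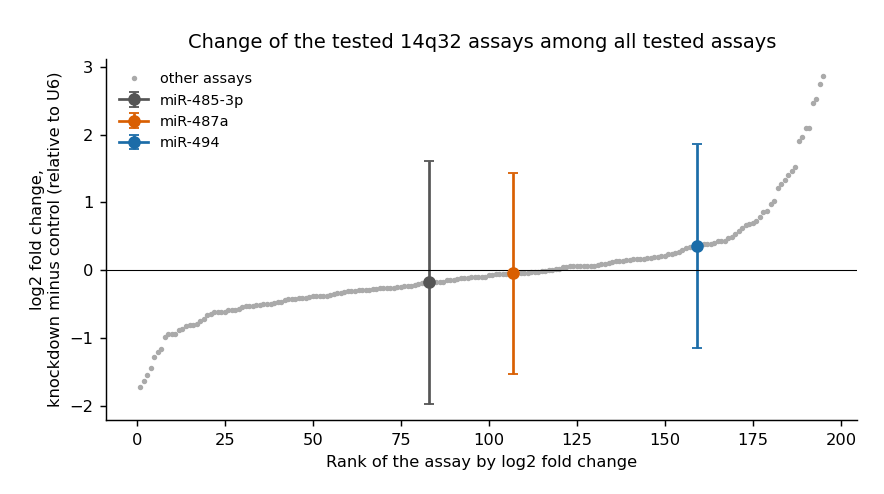
Log2 fold change (knockdown minus control, relative to U6) of the 195 tested assays in order of size, with the 3 tested 14q32 members in colour and bars of 1 SE. The members rank 83rd (miR-485-3p), 107th (miR-487a) and 159th (miR-494) from the lowest, and each bar crosses 0.

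The 3 tested members had a median log2 fold change of -0.047, with 2 lower and 1 higher. Over all 195 assays the median was -0.096, with 116 lower and 79 higher. Averaged over miR-494 and miR-487a, the level relative to U6 on the log2 scale was -14.12 ± 2.74 in the controls and -13.97 ± 3.09 in the knockdowns (SD, n = 3 each), a difference of 0.15 that is smaller than either SD. For the other 155 assays under Ct 35 in all 6 samples it was -0.14. On the same scale the control and knockdown values overlapped for every one of the 161 assays with a Ct in each sample (0% without overlap). By raw Ct 14.9% of these assays did not overlap, and relative to commonly detected assays 3.11% did not, with neither member among them on either scale. Relative to U6, 19.3% were lower and 4.35% higher in knockdown in all 3 series, and relative to commonly detected assays 11.8% were lower and 11.8% higher. Neither miR-494 nor miR-487a was among them on these scales.

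For miR-494 and miR-487a, series 3 stood further from the other 2 series than knockdown stood from control, a pattern that was noticed in the data and is given as a description. Relative to U6, miR-494 averaged -16.37 in the 2 samples of series 3 and -10.97 in the 4 samples of series 1 and 2, a difference of -5.40. For miR-487a the averages were -18.34 and -13.80, a difference of -4.54. The median of the 161 assays moved by -2.26 in the same direction, since U6 was early in series 3: the mean U6 Ct was 12.2 and 13.2 there and between 13.97 and 15.45 in the other samples, from 2 and 3 determined wells of 4 in series 3. Relative to the mean of commonly detected assays, miR-494 still differed by -3.15 and miR-487a by -2.29 where the median assay differed by -0.0052 and the quartiles lay at -0.86 and 0.80. By this measure they ranked 6th and 9th lowest of 161. What sets series 3 apart is not stated in the labels, and its part in these levels was not tested.

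The assays whose levels followed miR-494 most closely were sought among the other 160 assays determined in all samples, by correlation relative to the mean of commonly detected assays over the 6 samples. They were miR-423-5p (Pearson r = 0.967, Spearman rho = 1), miR-100 (r = 0.964, rho = 0.943) and miR-34a (r = 0.945, rho = 0.943). miR-487a ranked 13th, with r = 0.853 and rho = 0.543. These are the highest of 160 values over 6 samples that fall into the series described above, and are given as a description.

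The label of the cells was set beside lineage miRNAs. These lists were chosen with earlier results of these data known, so the counts are a description and do not test the label. All 6 assays chosen as typical of this line (miR-17, miR-20a, miR-106a, miR-10a, miR-10b and miR-196b) were determined in every sample, at a Ct from 16.2 to 25.1. The liver miRNA miR-122 was undetermined in all samples. Of 5 neuronal assays, a lineage in which the 14q32 miRNAs are abundant, miR-9, miR-128a and miR-218 were determined in all samples and miR-124a and miR-137 in some. The determined wells of these 5 lay at a Ct from 19.3 to 32.8. Of the markers of other lineages, those determined in all samples were 1 of 5 for blood (miR-223), 1 of 3 for muscle (miR-133a), 0 of 5 for mesenchyme and 0 of 4 for pluripotent cells. Across the card a Ct under 35 was obtained for 188 to 226 miRNA assays per sample.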

How the data were processed

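Per the labels' protocols, 1000 ng of total RNA from each sample was reverse transcribed with Megaplex Pool A primers and run on TaqMan array cards for 40 cycles. The authors deposited raw Ct values and, for each assay, a ratio to U6. Its log2 equals the sample's mean U6 Ct less the Ct of the assay (largest difference 6.77e-06). Threshold settings are not given in the sources used here. U6 came from 2 to 4 determined wells of 4, and it moves all assays of a sample together. There are no counts behind a Ct, so depth is given as the number of assays under Ct 35.

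Deposited ratios were taken to log2, with undetermined wells as missing. The groups were compared with limma 3.58.1 (R 4.3.3, two-sided, group as the only term), with Benjamini-Hochberg adjustment over all assays tested. The variance of each assay was drawn by limma toward that of all assays tested, so each SE and interval is partly pooled over assays. The script was tested on simulated data with known changes, no undetermined wells and the same spread for every assay. That run does not show how small a change could be found for members with few wells. Commonly detected assays are the 157 under Ct 35 in all samples, 2 of them members. Every member is named, with values in full for those determined in 3 or more samples. The members and lists were chosen with earlier results of these data known. None of the listed other miRNAs of the domain (miR-300, miR-665, miR-668, miR-770, miR-1185, miR-1193, miR-1197) was analysed here.

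Deviations from the group means over 161 assays correlated at r = 0.416, 0.527 and 0.625 between same-numbered control and knockdown samples (across assays, which are not independent). All were above 0.1, so the numbers were treated as pairs on the evidence of the values, since no label states it. The limit of 0.1 does not single out these pairs: control 1 with knockdown 2 reached 0.249 and control 2 with knockdown 1 reached 0.129. The other differently numbered pairs were negative, from -0.536 to -0.342, and each sample correlated most with its same-numbered partner. Results with a replicate block stand beside the unblocked ones. Alternatives covered the reference, normalization, undetermined and late wells, the Ct filter, the block and leaving out each sample.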

Additional observations from a re-analysis of the deposited data

How the results depend on the processing

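No assay passed an adjusted p of 0.05 in limma under any of the 17 alternatives; at an unadjusted p under 0.05 there were 3 with commonly detected assays as reference, 6 by raw Ct, 1 after quantile normalization, 2 with undetermined wells at Ct 40, 10 with the replicate block, 13 with the block and commonly detected assays, and 0 to 3 when a sample was left out. The change of the 3 tested members lay near 0, so its sign turned easily. Changes by raw Ct are given here with their sign turned, so that a negative value means a later Ct in knockdown. The median of -0.047 became 0.089 with commonly detected assays as reference, with or without the block. It became 0.25 with undetermined wells at Ct 40 and -0.95 by raw Ct. It became 0.15 where late wells were missing or the filter was stricter, which leave 2 members, and spanned -1.20 to 1.47 in fits without 1 sample. The mean of miR-494 and miR-487a turned to -0.75 by raw Ct and spanned -1.38 (control 3 left out) to 1.94 (knockdown 3 left out). The replicate block leaves it at 0.15 and changed no call. Of 44 values of single members 10 reversed: miR-485-3p to 0.25 with wells at Ct 40, miR-494 to -0.55 by raw Ct, miR-487a to 0.089 with commonly detected assays (block or not), and 6 in fits without 1 sample. Over all fits without 1 sample, reversed or not, the change ran from -1.55 to 1.47 for miR-487a and from -1.20 to 2.40 for miR-494. The difference in members under Ct 35 ran from -0.833 to 1.17, with -0.667 under Ct 32 and 0.667 for any Ct, all within the knockdown SD of 2.08. The cause was not tested. With 3 samples a group and 1 well per assay, the blocked intervals exclude only large changes of miR-487a and miR-494. They do so only if same-numbered samples are pairs, as inferred from the values. They also require that a spread drawn toward that of the other assays holds for these members. The 41 other members cannot be compared.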
